A study of Mus musculus with 10 samples.

Results

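The genes described here are 10 that attach chromosome ends to the nuclear envelope in meiosis or cap them, taken by symbol from the 23420 gene rows of the count files. They comprise 4 attachment genes (Sun1, Kash5, Terb1 and Spdya) and 6 genes of shelterin, the protein complex that coats telomeres (Terf1, Terf2, Terf2ip, Tinf2, Acd and Pot1a). The files list Kash5 under its older symbol Ccdc155 and Terb1 as Ccdc79. Testes of mice at postnatal day 18 gave spermatogenic cells, whose polyA RNA was sequenced in 5 Ino80cKO libraries and 5 Ino80WT libraries. In Ino80cKO a testis-restricted loss of Ino80, which encodes an ATP-dependent chromatin remodeller, is driven by Stra8-Cre, a recombinase expressed in male germ cells before meiosis. All mice were of mixed background. The sources used here do not say whether the Ino80WT mice carry Cre or floxed alleles, nor whether the libraries of a group came from different animals; the tests therefore rest on library-to-library spread, some of which may be technical. Cells came from digested tubules without a described sort, so somatic cells can be present.

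During meiotic prophase, telomeres move to the inner nuclear membrane and are pulled along it, which helps homologous chromosomes find each other. TERB1, with TERB2 and MAJIN, links telomeres to the membrane. SUN1 spans the inner membrane and binds KASH5 in the outer membrane, which recruits cytoplasmic dynein, and SPDYA activates the kinase CDK2 at telomeres. Shelterin is present in all cells: TERF1 and TERF2 bind the duplex telomere repeat, TINF2 joins them to ACD, ACD tethers POT1 proteins to the single-stranded end, and TERF2IP binds TERF2.

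Gene counts per library ran from 19036178 to 23498321 in Ino80cKO and from 16750609 to 23700094 in Ino80WT. A floor of 3 counts lies between 0.127 and 0.179 CPM (counts scaled to a common library size), counting error only. For this floor alone, CPM was taken from library totals without TMM factors. Single members had 438 to 5550 counts in a library, far above that floor. The count of Ino80 itself averaged 96.0 ± 1.37 CPM in Ino80cKO and 94.9 ± 12.6 CPM in Ino80WT (SD, n = 5 each; log2 fold change 0.02 ± 0.09, edgeR adjusted p = 0.889). Since reads from undeleted exons still count, the level is no check of the labels or of the deletion. Ino80WT libraries 1 and 2 had the highest shares of Rn45s, the precursor of ribosomal RNA, with 7.08% and 4.66% of their gene counts. Ino80WT libraries 3, 4 and 5 had 2.05%, 1.6% and 2.96%, and Ino80cKO libraries had 1.76% to 3.76%. Library 2 was thus closer to the highest Ino80cKO library than to library 1.

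The 250 bases upstream of the annotated start are shown for the 4 attachment genes, which fell together, and for Terf2ip, the member that rose. They are from RefSeq on GRCm38.p6, read 5′ to 3′ on the strand of the gene. Kash5 is at chr7:45204893-45205142 (minus strand), Spdya at chr17:71551811-71552060 (plus), Terb1 at chr8:104509888-104510137 (minus), Sun1 at chr5:139200387-139200636 (plus, the first of 2 starts in the table) and Terf2ip at chr8:112011109-112011358 (plus). The Spdya window lies inside the gene, whose span begins at 71526895. It therefore precedes an internal start, the only start listed for Spdya, and not the outer end of the gene. The windows of Kash5 and Sun1 reach into the gene span at its edge. Capitals mark matches to TAACNG or CAACNG, the letters bound by MYB factors such as the pachytene regulator MYBL1, on either strand.
Kash5: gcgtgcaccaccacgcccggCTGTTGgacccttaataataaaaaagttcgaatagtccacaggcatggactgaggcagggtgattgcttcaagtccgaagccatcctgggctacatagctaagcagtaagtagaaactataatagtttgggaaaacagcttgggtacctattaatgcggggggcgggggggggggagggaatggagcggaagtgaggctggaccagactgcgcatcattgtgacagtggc
Spdya: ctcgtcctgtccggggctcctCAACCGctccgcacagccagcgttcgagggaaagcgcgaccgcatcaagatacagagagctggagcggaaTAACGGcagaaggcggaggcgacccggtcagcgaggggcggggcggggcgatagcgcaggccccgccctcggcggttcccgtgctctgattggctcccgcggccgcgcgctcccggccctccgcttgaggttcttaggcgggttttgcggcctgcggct
Terb1: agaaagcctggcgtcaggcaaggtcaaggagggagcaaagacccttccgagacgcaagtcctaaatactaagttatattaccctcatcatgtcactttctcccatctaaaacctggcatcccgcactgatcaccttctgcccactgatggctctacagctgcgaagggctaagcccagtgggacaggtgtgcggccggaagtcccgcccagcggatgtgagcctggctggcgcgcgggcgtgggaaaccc
Sun1: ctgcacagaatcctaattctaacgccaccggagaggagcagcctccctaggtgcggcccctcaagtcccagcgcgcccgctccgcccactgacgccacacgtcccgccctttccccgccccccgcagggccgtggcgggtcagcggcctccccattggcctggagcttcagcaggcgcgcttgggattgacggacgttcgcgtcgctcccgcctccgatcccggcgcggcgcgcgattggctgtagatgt
Terf2ip: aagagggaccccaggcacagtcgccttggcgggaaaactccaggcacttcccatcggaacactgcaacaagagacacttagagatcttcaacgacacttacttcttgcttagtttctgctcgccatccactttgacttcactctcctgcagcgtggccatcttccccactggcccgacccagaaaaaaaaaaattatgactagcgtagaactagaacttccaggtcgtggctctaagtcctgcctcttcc
Kash5 had 1 match, 230 bases before the start on the opposite strand, and Spdya had 2, at 229 and 159 bases. Terb1, Sun1 and Terf2ip had none in this window. Of the 9 members with an entry in the promoter table, 3 had a match at their first start (Kash5, Spdya and Pot1a), and Sun1 had 1 at its second start, 44 bases before it, beside 43.1% of 32851 windows over all starts in the table. The letters CNCCTCAG, bound by STRA8, were in none of the 9 windows and in 6.42% of all windows. TGACGTCA, the full cyclic AMP response element, was in 1 member window, that of Tinf2, and in 1.55% of all. The windows of Spdya and Sun1 had 70.4% and 70.0% G and C, those of Kash5 and Terf2ip 53.2% and 51.2%, against a median of 52.4% over all windows. A match here describes letters and is not evidence of binding.

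Transcripts of all 4 attachment genes were lower in Ino80cKO, Spdya and Kash5 by the most, while shelterin transcripts moved in both directions, with Terf1 lower by more than Sun1. The log2 fold changes of Acd (-0.39 ± 0.11) and Sun1 (-0.32 ± 0.08) were close, and their order was not tested. All 10 members passed the filter on low counts: 7 fell, 1 rose and 2 were not called. For comparison, 27.6% of the 15265 genes tested were lower and 18.3% higher, 45.9% in all. The median log2 fold change was -0.82 for the attachment genes, -0.18 for shelterin and 0.02 for all tested genes. In 7 members every Ino80cKO library was below every Ino80WT library, and in 1, Terf2ip, every one was above, against 22.0% and 9.96% of all tested genes. CPM values are scaled by TMM, fold changes are Ino80cKO over Ino80WT with SE, and adjusted p-values come from edgeR (quasi-likelihood, Benjamini-Hochberg over all 15265 genes) (n = 5 libraries per group). A gene was called lower or higher at an adjusted p under 0.05.

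**Figure D1:**
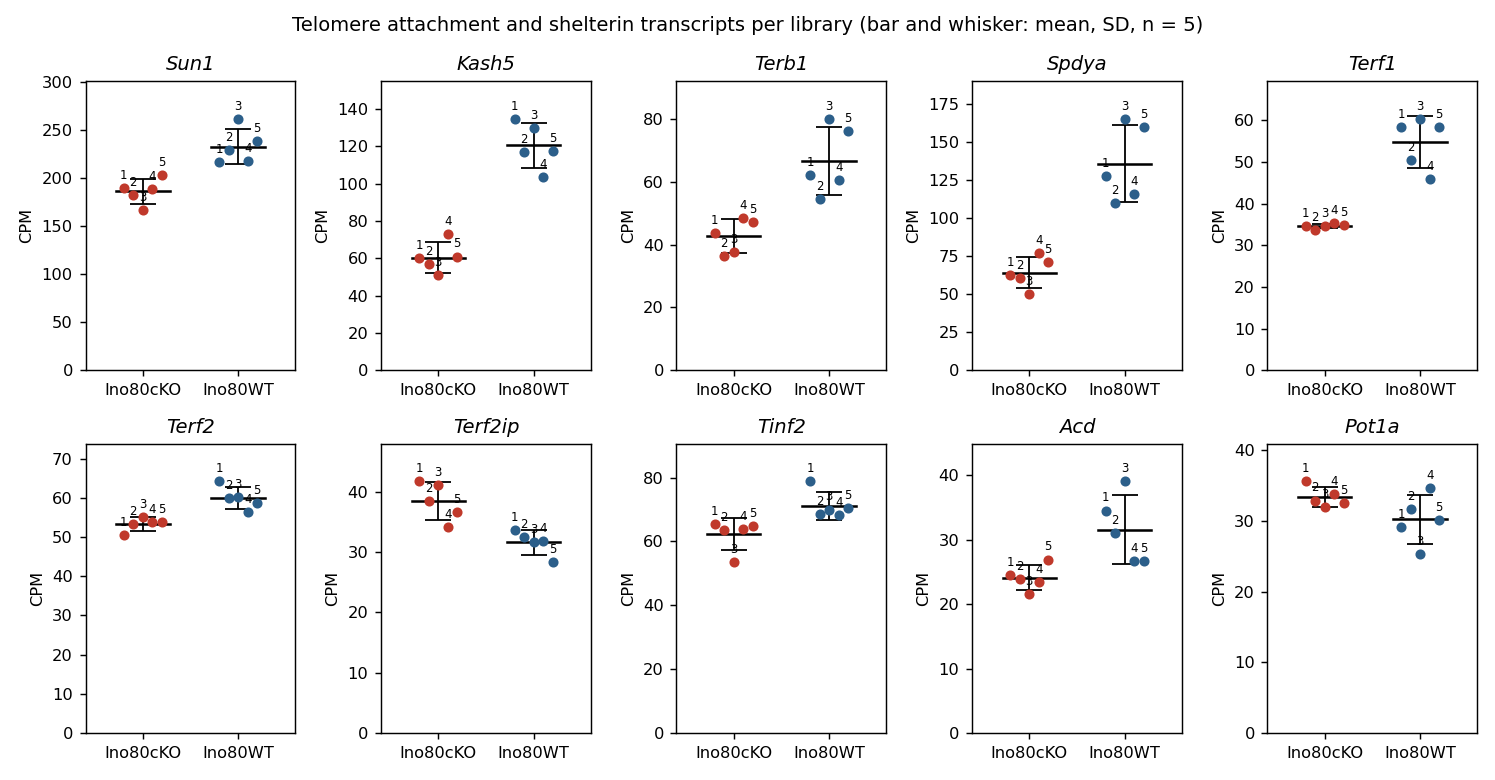
Transcript level in CPM (vertical axes, each from 0) of the 10 genes in each library, with library numbers beside the points and mean and SD as bars (n = 5). The groups do not overlap in any gene except Acd and Pot1a, and Terf2ip is the one gene in which the Ino80cKO libraries lie above the Ino80WT libraries.

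Spdya (chromosome 17, positions 71526895 to 71589533), the CDK2 activator needed for telomere attachment, had 62.7, 60.4, 50.2, 76.9 and 71.0 CPM in Ino80cKO libraries 1 to 5, against 127.6, 110.2, 165.5, 116.2 and 160.0 CPM in Ino80WT libraries 1 to 5. Every Ino80cKO library was below the lowest Ino80WT library, and within the groups Ino80cKO 3 was lowest and Ino80WT 3 highest. The means were 64.2 ± 10.3 and 135.9 ± 25.4 CPM (SD), a fall to 0.473 of the Ino80WT level (log2 -1.08 ± 0.14, adjusted p = 0.00012).

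Kash5 (chromosome 7, positions 45183619 to 45204919), the outer membrane partner of SUN1, had 60.2, 56.7, 50.8, 73.1 and 60.9 CPM in Ino80cKO and 134.7, 116.8, 129.7, 103.4 and 117.4 CPM in Ino80WT. The groups did not overlap, and even the highest Ino80cKO library was well below the lowest of Ino80WT. Kash5 fell to 0.501 of the Ino80WT level (log2 -0.996 ± 0.10, 95% interval of the fold 0.430 to 0.584, adjusted p = 4.82e-05).

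Terb1 (chromosome 8, positions 104446718 to 104509887), which recruits the attachment complex to telomeres, had 43.7, 36.5, 37.6, 48.6 and 47.3 CPM in Ino80cKO, against 62.2, 54.7, 80.1, 60.5 and 76.2 CPM in Ino80WT. Libraries 3 and 5 stood above the other 3 in Ino80WT, as they did for Spdya, and no Ino80cKO library reached the lowest of Ino80WT. The log2 fold change was -0.64 ± 0.12 (fold 0.641, adjusted p = 0.0011).

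Sun1 (chromosome 5, positions 139200564 to 139249839), the inner membrane protein, changed least among the attachment genes. It had 189.5, 182.5, 166.6, 188.4 and 203.2 CPM in Ino80cKO and 216.4, 228.7, 261.7, 218.0 and 238.4 CPM in Ino80WT. The groups were separated by a narrow gap, and again Ino80cKO 3 was lowest and Ino80WT 3 highest. The log2 fold change was -0.32 ± 0.08 (fold 0.7996, adjusted p = 0.0047), and under library totals, without TMM factors, it was -0.14 with adjusted p = 0.1, so the call depended on the scaling. Sun1 is also transcribed in somatic cells.

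Among the shelterin genes, Terf1 (chromosome 1, positions 15805546 to 15844052), which encodes a protein that binds duplex telomere DNA and is bound by TERB1 in meiosis, fell. It had 34.7, 33.8, 34.5, 35.3 and 34.9 CPM in Ino80cKO, against 58.3, 50.5, 60.4, 45.9 and 58.4 CPM in Ino80WT. The Ino80cKO libraries were nearly equal (coefficient of variation 1.66%) and the Ino80WT libraries were spread more widely (11.4%). At 699 to 886 counts per Ino80cKO library, counting error alone would give more spread than 1.66%. The near equality is therefore no measure of how tightly Terf1 is expressed. Terf1 was at 0.633 of the Ino80WT level (log2 -0.66 ± 0.08, adjusted p = 9.76e-05).

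Terf2 (chromosome 8, positions 107069400 to 107096548), whose product protects chromosome ends from fusion, had 50.5, 53.3, 55.2, 53.9 and 53.9 CPM in Ino80cKO and 64.2, 60.1, 60.2, 56.4 and 58.5 CPM in Ino80WT. The groups did not overlap, but the difference was small. With a log2 fold change of -0.17 ± 0.06 and adjusted p = 0.0435, Terf2 passed narrowly. The call was kept only without robust dispersions and without Ino80WT library 4. In the other 16 of 18 alternative settings adjusted p was from 0.0568 to 0.911, and under library totals the sign turned (log2 0.01).

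Terf2ip (chromosome 8, positions 112011359 to 112020528), the gene of RAP1, rose. It had 41.7, 38.4, 41.1, 34.2 and 36.6 CPM in Ino80cKO, against 33.7, 32.5, 31.6, 31.8 and 28.3 CPM in Ino80WT. Ino80cKO library 4 came within 1 CPM of the highest Ino80WT library, and the groups did not overlap. Terf2ip was 1.22-fold higher (log2 0.28 ± 0.08, 95% interval of the fold 1.08 to 1.37, adjusted p = 0.0118) and kept this call in all 18 alternative settings.

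The other 3 shelterin genes link TERF proteins to the single-stranded end. Acd (chromosome 8, positions 105698155 to 105701228), the gene of TPP1, had 24.5, 23.9, 21.6, 23.5 and 26.9 CPM in Ino80cKO, against 34.5, 31.0, 39.0, 26.7 and 26.6 CPM in Ino80WT. Ino80cKO 5 lay above Ino80WT 4 and 5, so the groups overlapped. Acd fell by 0.39 on the log2 scale (SE 0.11, adjusted p = 0.0137), a call lost under library totals (log2 -0.21, adjusted p = 0.107) and without Ino80WT libraries 1 and 2 (log2 -0.30, adjusted p = 0.102).

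Tinf2 (chromosome 14, positions 55676208 to 55682159) had 65.5, 63.7, 53.5, 63.9 and 65.0 CPM in Ino80cKO and 78.8, 68.5, 70.0, 68.2 and 70.5 CPM in Ino80WT. Every Ino80cKO library was below every Ino80WT library, yet Tinf2 did not pass (log2 -0.19 ± 0.08, 95% interval of the fold 0.782 to 0.980, adjusted p = 0.0532). Its log2 fold change was -0.12 without Ino80cKO 3, the lowest library, -0.10 without Ino80WT 1 and 2, and -0.02 under library totals. Its exons share 1369 of 3620 bases (GENCODE M21 basic annotation) with Gmpr2 on the opposite strand. Gmpr2 itself was lower, at 15.5 CPM in Ino80cKO and 21.5 CPM in Ino80WT (log2 -0.47 ± 0.09, adjusted p = 0.00144), and if counting ignored strand their reads cannot be told apart. The overlap of Acd with Carmil2 (603 of 3154 bases) and of Spdya with Trmt61b (147 of 2198 bases) is smaller, and Carmil2 (listed as Rltpr) had 1.65 CPM in Ino80cKO and 1.66 CPM in Ino80WT. Trmt61b was lower, at 6.06 CPM in Ino80cKO and 7.73 CPM in Ino80WT (log2 -0.35 ± 0.13, adjusted p = 0.0376). Spdya also shares 250 exon bases with the same-strand pseudogene Mettl4-ps1, which was not matched to a row of the files.

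Pot1a (chromosome 6, positions 25743940 to 25809277), which binds the single-stranded end, had 35.6, 32.9, 31.95, 33.9 and 32.6 CPM in Ino80cKO and 29.2, 31.8, 25.4, 34.7 and 30.2 CPM in Ino80WT. The groups overlapped and Pot1a did not pass (log2 0.14 ± 0.09, 95% interval of the fold 0.970 to 1.26, adjusted p = 0.191). Under library totals it was higher (log2 0.31, adjusted p = 0.022). Mice have another POT1 gene, Pot1b, a close copy, and how reads matching both were handled is unknown here, so the split between them is uncertain.

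**Figure D2:**
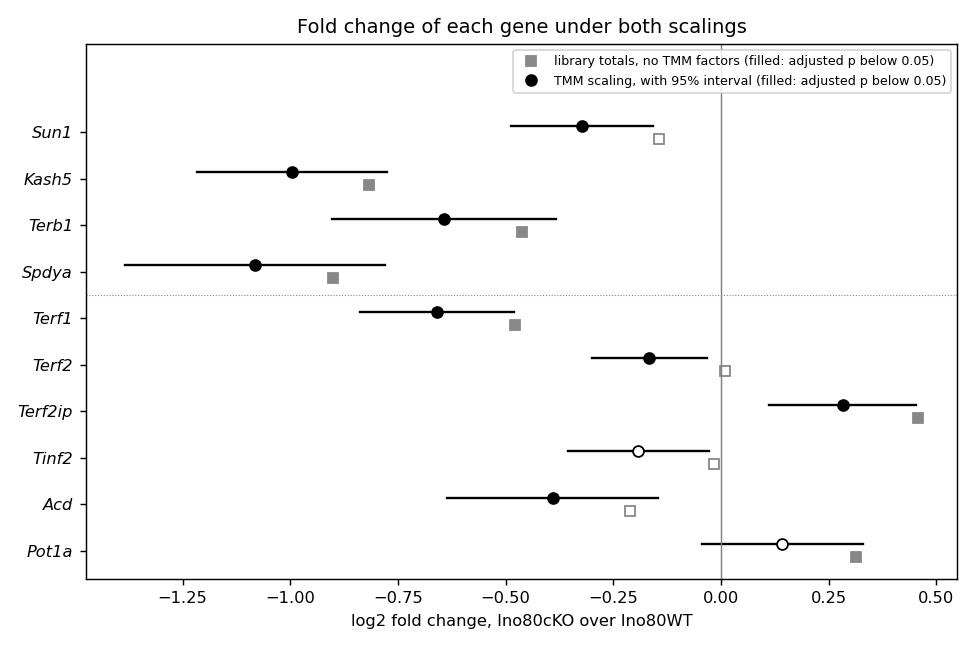
Log2 fold change (horizontal axis, Ino80cKO over Ino80WT) of each gene under TMM scaling (circles, 95% interval) and under library totals (squares), with filled symbols for adjusted p under 0.05 and a dotted line between attachment and shelterin genes. Library totals shift every gene to the right, and Kash5, Terb1, Spdya and Terf1 stay lower and called while Terf2 turns to 0.01.

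The scaling shifted every value. Under library totals the median of all tested genes moved to 0.19 from 0.02, with 2938 genes lower and 5484 higher of 15265. Of the members 4 were lower (Kash5, Terb1, Spdya and Terf1) and 2 higher (Terf2ip and Pot1a). The median of the 10 members was -0.18, against -0.36 with TMM. Kash5, Terb1, Spdya and Terf1 were lower and called in all 18 alternative settings, with log2 fold changes of -1.07 to -0.82, -0.71 to -0.46, -1.15 to -0.90 and -0.72 to -0.48.

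Divided by exon length (RPKM), the levels of Sun1, Spdya and Kash5 stood above those of the other 7 members in both groups. In Ino80cKO the order was Sun1 (37.3 ± 2.66 RPKM), Spdya (29.2 ± 4.66), Kash5 (26.7 ± 3.63), Tinf2 (17.2 ± 1.38), Terf1 (15.3 ± 0.253), Terb1 (14.5 ± 1.87), Terf2 (13.9 ± 0.455), Terf2ip (10.8 ± 0.879), Pot1a (7.79 ± 0.334) and Acd (7.63 ± 0.607; SD, n = 5). In Ino80WT Spdya was first (61.8 ± 11.6 RPKM), followed by Kash5 (53.2 ± 5.43), Sun1 (46.6 ± 3.71), Terf1 (24.1 ± 2.74), Terb1 (22.6 ± 3.69), Tinf2 (19.7 ± 1.21), Terf2 (15.6 ± 0.740), Acd (10.01 ± 1.69), Terf2ip (8.87 ± 0.561) and Pot1a (7.06 ± 0.798). Sun1, behind Spdya and Kash5 in Ino80WT, had the highest mean in Ino80cKO, although the libraries of Sun1 and Spdya overlapped in Ino80cKO. Neighbours whose libraries did not overlap were Kash5 and Tinf2, Terf2 and Terf2ip, and Terf2ip and Pot1a in Ino80cKO, and Sun1 and Terf1, Tinf2 and Terf2, and Terf2 and Acd in Ino80WT. The other neighbours in these orders overlapped. Lengths are the union of exons in the GENCODE M21 basic set, and the annotation behind the counts is unknown here, so levels between genes are approximate.

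**Figure D3:**
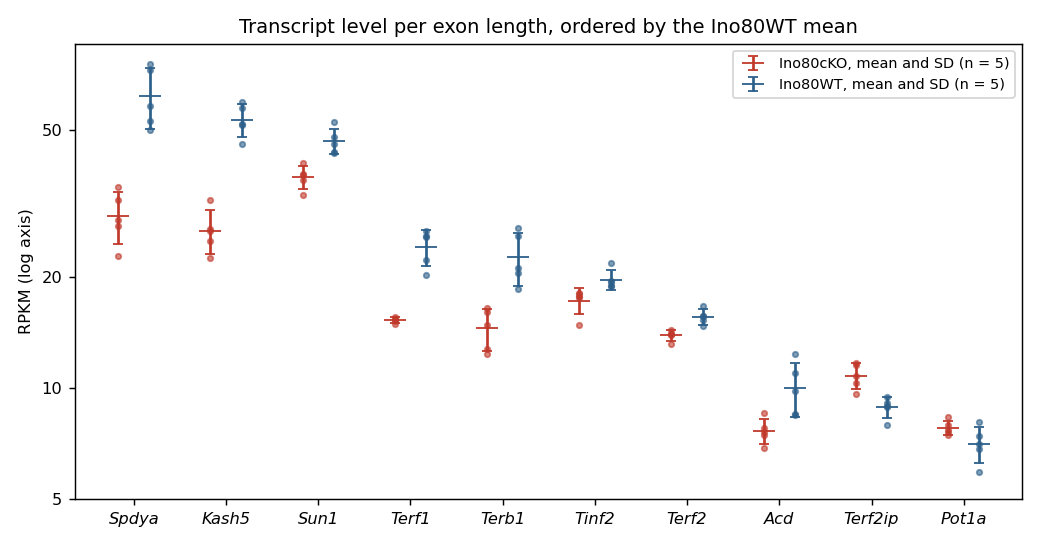
RPKM (log axis) of the 10 genes, ordered by the Ino80WT mean, with points for libraries and mean and SD for each group (Ino80cKO left of Ino80WT). Spdya, Kash5 and Sun1 lie above 20 RPKM in every library, and Acd, Terf2ip and Pot1a lie lowest.

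Ratios of counts within a library do not depend on how libraries are scaled, so partners and related genes were compared that way (log2 ratio, exact two-sided permutation test over libraries, adjusted over 10 pairs). The smallest p that 5 against 5 libraries allow is 0.00794, and 5 pairs reached it, each with adjusted p = 0.0159 and no overlap between groups. Kash5 stood at 0.323 reads per read of its partner Sun1 in Ino80cKO and 0.517 in Ino80WT, a difference of -0.68. Spdya stood at 0.436 per read of its kinase Cdk2 in Ino80cKO and 0.778 in Ino80WT (-0.84). Balance between the SUN genes also shifted: Sun1 stood at 1.37 per read of Sun2 in Ino80cKO and 2.16 in Ino80WT (-0.66), and Sun2 encodes the widely present relative of SUN1.

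Within shelterin, Terf1 stood at 0.650 reads per read of Terf2 in Ino80cKO and 0.910 in Ino80WT (log2 difference -0.49, adjusted p = 0.0159 by exact permutation). Terf2ip per read of Terf2, the protein it binds, was 0.718 in Ino80cKO and 0.527 in Ino80WT (0.45). These pairs show unequal change and not which of the partners moved. Pot1a per read of Pot1b was 1.03 in Ino80cKO and 0.870 in Ino80WT (0.25, exact permutation p = 0.0317, adjusted p = 0.0529), and the groups overlapped; it was called without Ino80WT 4 (0.31). Acd per read of Tinf2 was 0.387 in Ino80cKO and 0.440 in Ino80WT (-0.18, adjusted p = 0.129, exact permutation), and the difference was -0.099 without Ino80WT 3.

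The ratios of Terb1 to its binding partners did not pass the test. Per read of Terf1 Terb1 stood at 1.23 in Ino80cKO and 1.21 in Ino80WT (log2 difference 0.01, exact permutation adjusted p = 0.794), with libraries from 0.11 to 0.46 in Ino80cKO and from 0.09 to 0.41 in Ino80WT on the log2 scale. Its ratio to Terb2 differed by 0.25 and its ratio to Majin by 0.21 (adjusted p = 0.129 and 0.176, exact permutation), with overlapping groups in both. Without Ino80WT 3 the difference to Terb2 was 0.35 and called (exact permutation adjusted p = 0.0132), and without Ino80WT 1 and 2 it was 0.090 and not called. A p that misses the threshold does not show that these ratios are alike.

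**Figure D4:**
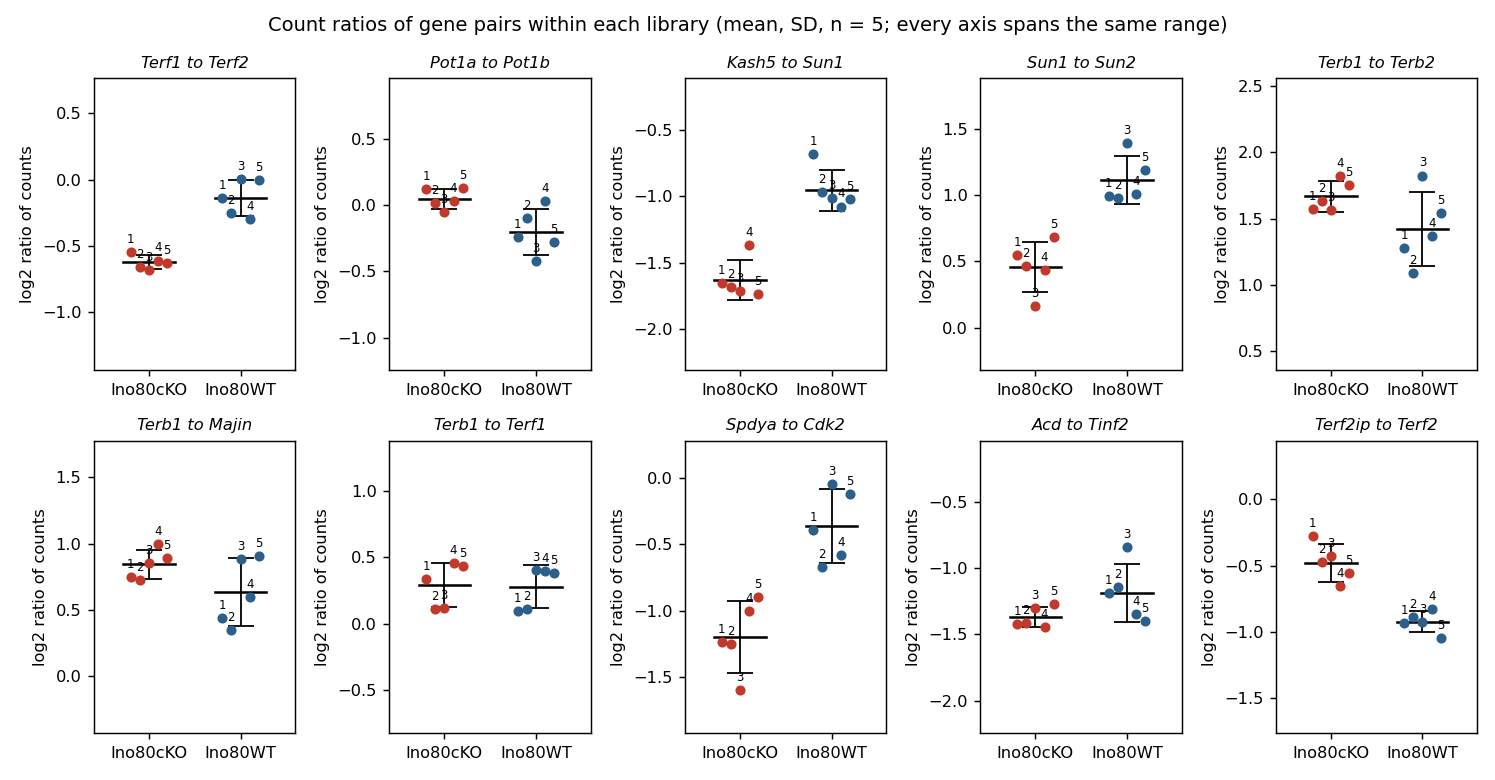
Log2 ratio of read counts of each gene pair within each library (vertical axes, all spanning the same range), with mean and SD (n = 5) and library numbers. Groups are apart for Terf1 to Terf2, Kash5 to Sun1, Sun1 to Sun2, Spdya to Cdk2 and Terf2ip to Terf2, and overlap for the other 5 pairs.

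The list of direct partners and nuclear envelope genes had 11 members, 5 of them lower and 3 higher, and a median log2 fold change of -0.14; of all tested genes 27.6% were lower and 18.3% higher. Under library totals 2 of the list were lower and 5 higher, with 2938 lower and 5484 higher of all 15265 genes. The rest of the attachment complex fell: Majin (listed as 1700123I01Rik) averaged 23.7 ± 2.27 CPM in Ino80cKO and 42.6 ± 2.39 CPM in Ino80WT (log2 -0.84 ± 0.08, adjusted p = 3.99e-05). Terb2 (listed as 4933406J08Rik) averaged 13.4 ± 1.14 CPM in Ino80cKO and 24.7 ± 1.56 CPM in Ino80WT (log2 -0.88 ± 0.09, adjusted p = 4.27e-05). In both genes the libraries of a group were close together and the groups did not overlap. Cdk2 and the cyclin gene Ccne2 were lower by smaller amounts (log2 -0.24 and -0.34), and Sun2 rose to 135.5 ± 8.83 CPM in Ino80cKO, against 107.5 ± 6.12 CPM in Ino80WT (log2 0.33 ± 0.07, adjusted p = 0.00194). The remaining calls, named after their values were seen, were Lmna (lower) and Lmnb2 and Emd (higher), which encode lamins and the inner membrane protein emerin. Ccne1, Lmnb1 and Banf1 did not pass.

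Of 20 genes of other nuclear envelope bridges and cytoplasmic dynein, 19 passed the count filter (Sun5, with 2 counts in all, did not). The test called 5 of the 19 lower and 2 higher, near or below the 27.6% and 18.3% of all tested genes, and their median was 0.10. Dynlrb2, a dynein light chain, had 4.66 to 9.47 CPM in Ino80cKO, against 17.02 to 23.9 CPM in Ino80WT (log2 -1.64 ± 0.19, adjusted p = 7.35e-05). Sun3, a SUN gene of later germ cells, fell by 1.46 on the log2 scale, and the dynein chains Dync1i2 and Dync1li2 by 0.53 and 0.43. Dync1h1, the dynein heavy chain, was not called (log2 -0.11 ± 0.16), and Dynll1 was lower (log2 -0.27), both named after their values were seen. Dync1h1 was lowest in Ino80WT 1, at 634.9 CPM. Ino80WT 2 to 5 had 1111 to 1404 CPM, above the Ino80cKO range of 905.1 to 1103 CPM. Syne2 was also lowest in Ino80WT 1 (264.5 CPM), whereas Ndel1 was lowest in Ino80WT 3 (61.82 CPM) and Dynll1 highest in Ino80WT 1 (277.1 CPM). Why Ino80WT 1 stood apart was not tested. The higher calls, Syne2 and Ndel1, also named afterwards, did not last: both were lost without Ino80cKO library 2, 3 or 4 or Ino80WT library 3, while 4 genes were higher without Ino80WT 1, 5 without Ino80cKO 5 and 9 under library totals. Under library totals 5484 of all 15265 genes were higher.

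Further telomere genes numbered 21, of which 4 fell, 2 rose and 15 were not called, beside 45.9% of all tested genes called; their median was -0.10. Nop10, a subunit of the telomerase and other box H/ACA particles, averaged 35.8 ± 2.05 CPM in Ino80cKO and 51.6 ± 4.24 CPM in Ino80WT (log2 -0.53 ± 0.08, adjusted p = 0.000211). The helicase gene Rtel1 fell by 0.42, and Tert, the catalytic subunit of telomerase, was at 8.37, 8.63, 8.29, 6.53 and 8.59 CPM in Ino80cKO, against 4.59, 6.75, 5.42, 6.13 and 4.76 CPM in Ino80WT (log2 0.54 ± 0.14, adjusted p = 0.00648). For Tert, Ino80cKO library 4 fell within the range of Ino80WT, and the other 4 were above it. The tankyrase gene Tnks2 was higher (log2 0.22), and Stn1 (listed as Obfc1) and Zbtb48, named after their values were seen, were lower (log2 -0.25 and -0.28). Pot1b did not pass (log2 -0.10 ± 0.07). Without Ino80cKO 3 or without Ino80WT 3 the lower calls numbered 2, and without Ino80cKO 1 or 2 or Ino80WT 3 the higher calls numbered 1. Under library totals there were 2 lower and 4 higher, beside 2938 lower and 5484 higher of all 15265 genes.

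Of the lists of germ cell stage and somatic cell markers, the pachytene list was called in full, the spermatid list not at all and the others in part. Of all tested genes 27.6% were lower and 18.3% higher. All 8 markers of pachytene spermatocytes, such as Ldhc and Piwil1, were lower (median log2 -1.56), and their summed level was 965.2 to 1755 CPM in Ino80cKO and 2853 to 4936 CPM in Ino80WT. As for the summed attachment genes, at 305.1 to 387.0 CPM in Ino80cKO and 498.0 to 637.0 CPM in Ino80WT, the lowest Ino80cKO library was number 3 and the highest Ino80WT library was number 3. Ino80cKO 3 was also lowest for the summed shelterin genes and macrophage markers. Ino80WT 3 was also highest for the summed bridge and dynein genes and the further telomere genes. Of 6 markers of leptotene and zygotene cells, 4 were lower (median -0.44; 1503 to 1860 CPM in Ino80cKO, 1740 to 2890 CPM in Ino80WT), and of 7 spermatogonial markers 2 were higher (median 0.22; 636.3 to 731.5 CPM in Ino80cKO, 486.2 to 647.7 CPM in Ino80WT). In bulk RNA, fewer cells of a type and less RNA per cell cannot be told apart. Of 6 spermatid markers, Prm1, Prm2 and Tnp2 were at 0 in all libraries, and the 1 that could be tested was not called (5.52 to 6.91 CPM summed in Ino80cKO, 5.55 to 7.74 CPM in Ino80WT).

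Sertoli cell markers were higher in 3 of 6 (3456 to 4530 CPM in Ino80cKO, 2433 to 3662 CPM in Ino80WT), macrophage markers in 4 of 6 (27.7 to 47.6 CPM in Ino80cKO, 13.5 to 21.6 CPM in Ino80WT), and Leydig, peritubular and endothelial markers in 3 of the 6 tested of 7 (684.9 to 1037 CPM in Ino80cKO, 589.5 to 760.7 CPM in Ino80WT). No marker of these 3 lists was lower and none was at 0 in all libraries, while 18.3% of all tested genes were higher and 27.6% lower. The part of cell composition in the changes of the telomere genes was not tested. Of the 7 members called lower, Spdya, Kash5, Terb1 and Terf1 had log2 fold changes (-1.08 to -0.64) between the medians of the pachytene and of the leptotene and zygotene markers, while Acd (-0.39), Sun1 (-0.32) and Terf2 (-0.17) had smaller ones than both.

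**Figure D5:**
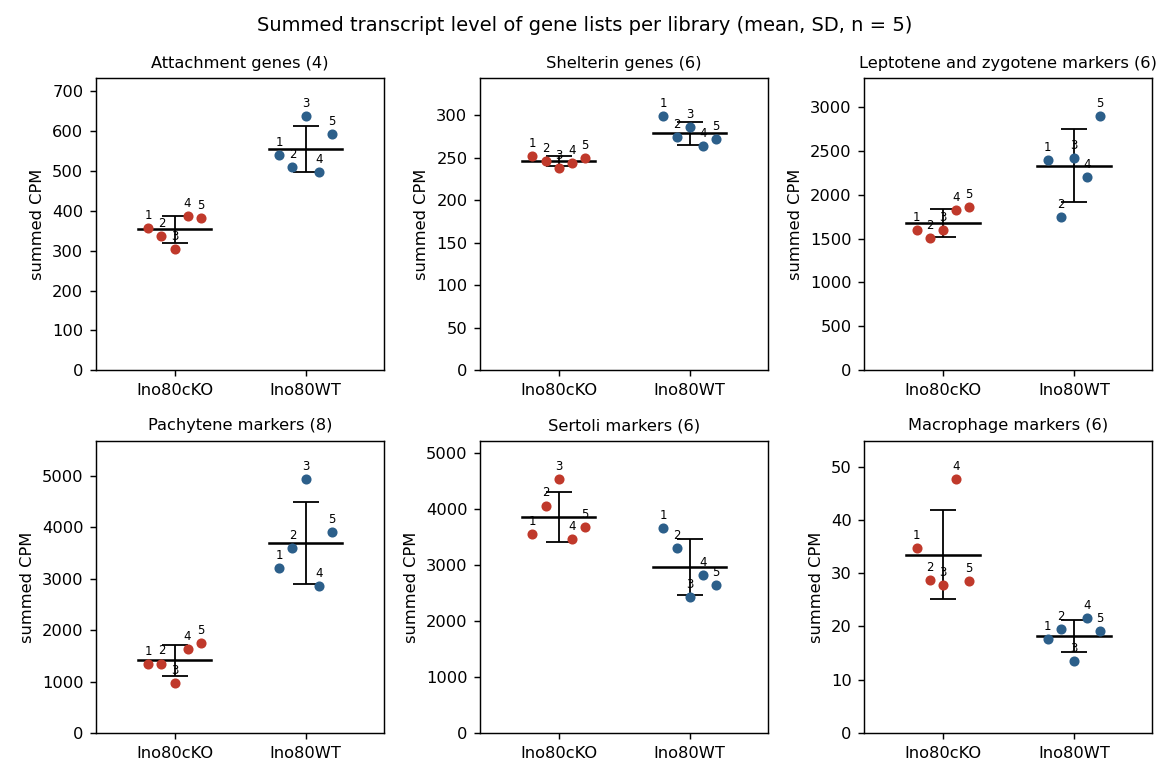
Summed CPM (vertical axes, each from 0) of the attachment genes, shelterin genes and 4 marker lists in each library, with mean and SD (n = 5) and library numbers. Attachment genes, shelterin genes and pachytene markers are lower in every Ino80cKO library than in any Ino80WT library, and macrophage markers are higher.

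For each member, the genes whose log2 CPM varied most like it within the groups (group mean subtracted, Pearson's r over 10 libraries, 10905 genes with log2 CPM of at least 3) are given as a description. They were Nt5m, Tmcc1 and Nek2 for Sun1 (r = 0.983 to 0.979), Fam216a and Srrt for Kash5 (0.940 and 0.934), Dact1, Asb1 and Pih1d2 for Terb1 (0.971 to 0.951), and Ccdc104, Ift81 and 1700007G11Rik for Spdya (0.971 to 0.964). For Terf1 they were Trmt5, Cops3 and Ik (0.961 to 0.950), and for Acd Mrpl38 and Eif3f (0.982 and 0.977). Terf2 had Dda1, Plekhj1 and Ube2e2 (0.957 to 0.910), Terf2ip had Hdac11, Klc1 and D11Wsu47e (0.915 to 0.904), Tinf2 had Nudt5, Ssna1 and Ctu2 (0.959 to 0.950) and Pot1a had Srl, Ehd4 and Meg3 (0.940 to 0.909). The 10 libraries are the same for every gene, and each library's depth and cell mix enter all of its values. These genes are the highest of 10905 over 10 libraries, so their r values are raised by selection. How high r would be by chance was not assessed. The share of genes with r over 0.8 was 13.0% for Sun1 and 7.16% for Spdya, and 0.101% to 3.70% for the other 8 members.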

How the data were processed

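The authors deposited raw counts per gene as whole numbers, 1 file per library with 23420 gene rows. Their processing, per the submitters' processing notes, used TopHat2, HTSeq, DESeq2 and mm10, with no versions or roles stated. For the counting step, annotation and strand setting were not given in the sources, though the kit is stranded per the labels' protocols. The 5 rows that name no gene held 35.5% to 44.0% of reads and were left out of all totals and fits.

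The tests used edgeR 4.0.16 (R 4.3.3; filterByExpr with minimum count 10 and total 15, TMM, robust glmQLFit, genotype as the only term). CPM uses TMM-scaled library sizes, log2 CPM a prior count of 2. Within-library ratios added 0.5 to each count. SE is the log2 fold change over the square root of F. The model was tested on simulated data, and the permutation test on fixed values with a known answer. The simulation changed few genes, with signs drawn at random. In the data 1179 called genes fell and 113 rose by at least 2-fold, so it does not test TMM under such unequal change. Genes were matched to RefSeq GRCm38.p6 (the build of mm10) by current or older symbol, and all 10 members and all genes of the other lists were found. Promoter motifs cover 9 members, Terf1 excepted.

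The members and lists were chosen with earlier results of these data known. Named genes are all members, up to 4 per further list with the smallest adjusted p, the partners in the ratios, and the 3 genes most like each member, of which 1 for Kash5 and 1 for Acd are not reported here. No libraries were duplicates (chi-square over its degrees of freedom at least 9.46 for any pair), and correlations of log2 CPM were 0.982 to 0.994 within Ino80cKO and 0.973 to 0.991 within Ino80WT. Alternatives were library totals, RLE factors, DESeq2 1.42.0, both other filters (no filter, or 1 CPM in 5 libraries), non-robust dispersions, a replicate block, each library left out, and Ino80WT 1 and 2 left out.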

Additional observations from a re-analysis of the deposited data

Results flagged for a closer look

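In groups of 5 libraries, the gap of the highest or lowest library to the nearest other was set against the range of the group, for the CPM of each member and for each ratio. Of 40 groups, 4 had a gap above the 95% critical value of 0.71, and chance gives about 1 in 20. Tinf2 was at 53.5 CPM in Ino80cKO library 3, with the other 4 at 63.7 to 65.5 CPM, and at 78.8 CPM in Ino80WT library 1, with the other 4 at 68.2 to 70.5 CPM. The log2 ratio of Kash5 to Sun1 was -1.36 in Ino80cKO library 4, with the other 4 at -1.74 to -1.65, and -0.68 in Ino80WT library 1, with the other 4 at -1.08 to -0.97.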

How the results depend on the processing

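Over 18 alternative settings, Kash5, Terb1, Spdya and Terf1 stayed lower and Terf2ip higher, each called. Under library totals, 2938 of all 15265 genes were lower and 5484 higher. Of the members 4 were lower and 2 higher, and of the partners and envelope genes 2 lower and 5 higher. Of the bridge and dynein genes 9 were higher, and of the further telomere genes 2 lower and 4 higher. The log2 fold change of Terf2 was 0.0092. The scaling shifted all values, and its part in these counts was not tested. Bridge and dynein genes called higher numbered 5 with RLE factors, 6 with DESeq2, 4 without a filter, 5 with at least 1 CPM in 5 libraries and 5 without Ino80WT 1 and 2, and further telomere genes called lower numbered 2 with RLE factors and 2 without a filter; the cause was not tested. Leaving out 1 library gave 6 to 7 members lower and 1 higher, 0 to 5 bridge and dynein genes higher (0 by edgeR's quasi-likelihood test; DESeq2 on all libraries gave 6), 1 to 2 further telomere genes higher and 2 to 5 lower.

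Replicate numbers did not pair the libraries: deviations of same-numbered libraries correlated at 0.196, 0.110, -0.471, -0.172 and -0.175, and 1 of 5 Ino80cKO libraries correlated best with its own number. With the replicate block, 1 bridge or dynein gene and 1 further telomere gene were higher and 2 further telomere genes lower, and Terf2 lost its call (adjusted p = 0.139). For the ratios, the block as sign flips over 5 pairs allows no p below 0.0625, so Terf1 to Terf2 (-0.49), Kash5 to Sun1 (-0.68), Sun1 to Sun2 (-0.66), Spdya to Cdk2 (-0.84) and Terf2ip to Terf2 (0.45) had adjusted p = 0.125 with unchanged differences.

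The ratio of Terb1 to Terf1 was -0.10 without Ino80WT 1 and 2 and -0.032 to 0.060 with 1 library left out. Terb1 to Terb2 ran from 0.16 to 0.35 (called without Ino80WT 3, adjusted p = 0.0132 by exact permutation) and Pot1a to Pot1b from 0.19 to 0.31 (called without Ino80WT 4, adjusted p = 0.0132 by exact permutation).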
